A study of Mus musculus with 6 samples.

Results

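The mouse mitochondrial genome encodes 13 mRNAs, and 10 of them are described here: mt-Nd1, mt-Nd2, mt-Nd3, mt-Nd4, mt-Nd5, mt-Cytb, mt-Co1, mt-Co2, mt-Co3 and mt-Atp6. They were taken by symbol from the 27998 genes of the deposited count table, and all 10 were found. The cells were germ cells of fetal mouse testes at embryonic day 14.5, sorted for the red fluorescent protein tdTomato and sequenced by a droplet method that tags the 3' end of each transcript and counts molecules by unique molecular identifiers (UMIs). There were 3 libraries of Rb1 conditional knockout (cKO) males and 3 control libraries of males labelled wildtype. Both groups were of the mixed strain background C57/B6 and 129, and the labels name neither the Cre driver nor the deleted stretch of Rb1. Rb1 encodes the retinoblastoma protein, which restrains the cell cycle. The labels also do not say how many animals a library holds, and p-values therefore reflect only how these libraries vary, which may be technical.

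Each of the 10 mRNAs specifies a membrane-embedded core subunit of the respiratory chain or of ATP synthase. The products of mt-Nd1 to mt-Nd5 belong to complex I, which oxidises NADH and pumps protons. Cytochrome b, from mt-Cytb, is the catalytic core of complex III, and the products of mt-Co1, mt-Co2 and mt-Co3 form the core of cytochrome c oxidase, complex IV. The product of mt-Atp6 is part of the proton channel of ATP synthase. They are transcribed as long precursors from the mitochondrial genome, mostly cut out at flanking tRNAs, and polyadenylated inside the organelle, while most other subunits are made from nuclear genes.

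Several of these mRNAs overlap or end without a complete stop codon, which matters for a method that captures the poly(A) end. Coordinates are those of GENCODE on the mouse build mm10 (GRCm38), plus strand. The open reading frames of mt-Atp8 and mt-Atp6 share 43 bases on one bicistronic mRNA. The end of mt-Atp8 (chrM:7910-7969) and the start of mt-Atp6 (chrM:7927-7986) are shown with the shared bases in capitals, because reads placed there cannot be given to one gene.
mt-Atp8 end: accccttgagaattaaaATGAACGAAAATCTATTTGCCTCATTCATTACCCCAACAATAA
mt-Atp6 start: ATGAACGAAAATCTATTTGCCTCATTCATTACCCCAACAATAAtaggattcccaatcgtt
The frames of mt-Nd4l and mt-Nd4 share 7 bases, shown in capitals at the end of mt-Nd4l (chrM:10144-10173).
mt-Nd4l end: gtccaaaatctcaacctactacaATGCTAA
The end of mt-Nd5 (chrM:11742-13565) overlaps mt-Nd6 (chrM:13552-14070), which lies on the other strand.

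For 3 of the 10 members, the annotated gene ends in a lone T that polyadenylation completes to a stop codon. The last 30 bases of these are shown for mt-Co3 (chrM:9361-9390), mt-Nd4 (chrM:11515-11544) and mt-Cytb (chrM:15259-15288), with that base in capitals.
mt-Co3 end: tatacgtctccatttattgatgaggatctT
mt-Nd4 end: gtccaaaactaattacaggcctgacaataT
mt-Cytb end: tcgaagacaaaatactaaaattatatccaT
Others carry a whole stop codon, in capitals here for mt-Co1 (chrM:6843-6872), mt-Nd1 (chrM:3678-3707) and mt-Nd3 (chrM:9777-9806).
mt-Co1 end: gaggaaccaacctatgtaaaagtaaaaTAA
mt-Nd1 end: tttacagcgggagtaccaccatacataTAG
mt-Nd3 end: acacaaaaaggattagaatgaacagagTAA

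Nuclear copies of mitochondrial DNA make some of the counts uncertain. Of all 50-base windows of each mRNA, the share found letter for letter in another annotated transcript was 100% for mt-Co2, 99.9% for mt-Co3, 99.5% for mt-Atp6 and 98.0% for mt-Nd3. The share was 62.2% for mt-Nd4, 51.1% for mt-Co1, 8.19% for mt-Nd2 and 7.61% for mt-Nd5. No window of mt-Nd1 or mt-Cytb had such a match. The copies that share the most windows with mt-Co3, mt-Co2 and mt-Atp6 lie near each other on chromosome 1. They are Gm28437 for mt-Co3 (chr1:24613189-24613971), Gm28661 for mt-Co2 (chr1:24614885-24615565) and Gm10925 for mt-Atp6 (chr1:24613974-24614651), and these 3 pseudogenes have no row in the deposited table. How reads that match both places were counted is not given in the sources used here.

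After 6 barcodes with under 500 genes were left out, 5154 cells of 5160 remained, 430 to 1354 in a library, and 9 barcode sequences occurred in 2 libraries. Summed UMIs ran from 7807571 to 16810763 in cKO libraries and from 7598511 to 17323152 in control libraries. Rb1 was at 3.46, 3.73 and 3.57 CPM (UMIs of a gene per 1000000 UMIs of the library) in cKO libraries, against 10.3, 8.82 and 6.87 CPM in control libraries; whether the 3' tag lies in the deleted stretch is not given. A list of 13 germ cell markers summed to 9680 to 10565 CPM in cKO libraries and 9818.5 to 10646 CPM in control libraries, and 6 Leydig cell markers to 0.768 to 1.31 CPM in cKO and 0.981 to 1.45 CPM in control libraries, with Insl3 and Hsd3b1 at 0 throughout. Sertoli cell markers summed to 8.03 to 12.6 CPM in cKO and 7.77 to 24.0 CPM in control libraries, interstitial stromal markers to 2.94 to 3.71 CPM in cKO and 3.20 to 9.21 CPM in control libraries, and endothelial markers to 43.9 to 60.1 CPM in cKO and 50.1 to 69.8 CPM in control libraries. Platelet markers, led by Pf4, reached at most 1.02 CPM in cKO libraries and 52.1 CPM in a control library.

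The 10 mRNAs made up a similar part of the transcriptome in both groups. They held 3.84%, 4.12% and 3.59% of all UMIs in cKO libraries 1 to 3, against 3.92%, 3.87% and 3.56% in control libraries 1 to 3. The groups overlapped, and the library numbered 3 was the lowest of each group. The mean was 3.85% ± 0.266 in cKO and 3.78% ± 0.196 in control libraries (SD, n = 3 each). The difference of 0.0684 percentage points was smaller than the spread within either group (exact two-sided permutation test, p = 0.8, where 0.1 is the smallest p that 3 against 3 can give). Its sign was decided by single libraries: it was -0.0663 points without cKO 2 and -0.0437 points without control 3. Because the values are shares of each library's UMIs, fewer mitochondrial transcripts per cell and more nuclear transcripts per cell cannot be told apart.

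The authors' 5 clusters, which carry numbers and no names, gave the same picture. Cluster 0, with 2210 cells and led by Tcf19, Ccne1 and E2f8, genes of entry into S phase, had 3.83% ± 0.269 in cKO and 3.82% ± 0.201 in control libraries (exact permutation p = 1). Cluster 1, with 1863 cells and led by the mitotic genes Cdc20, Hmmr and Ccnb1, had 3.83% ± 0.232 in cKO and 3.73% ± 0.183 in control libraries (exact permutation p = 0.6). Cluster 2, with 640 cells and led by histone genes such as Hist1h1e, had 3.93% ± 0.301 in cKO and 3.85% ± 0.234 in control libraries (exact permutation p = 0.7). Cluster 3, with 343 cells, had 3.88% ± 0.330 in cKO and 3.78% ± 0.0863 in control libraries (exact permutation p = 0.8). Its leading gene was Pf4, at 81.6 CPM in the cluster as a whole. Platelet markers, which include Pf4, reached at most 1.02 CPM in any whole cKO library, against 1.15 to 52.1 CPM in whole control libraries. Pf4 within cluster 3 was not counted by library, and it may not describe the cKO cells of the cluster. Sertoli cell markers summed to 33.8 CPM in cluster 3, against 10.4 to 12.9 CPM in the other clusters. Interstitial stromal markers summed to 23.8 CPM, against 0.802 to 4.40 CPM, while Leydig cell and macrophage markers were highest in other clusters. The 25 cells of cluster 3 in control 3 had a median of 4654 UMIs, against 12699 to 15999 UMIs in the other libraries. The part of these cells in the control value was not tested. Cluster 4, with 98 cells and led by Mgarp and Plk2, had 4.07% ± 0.227 in cKO and 3.96% ± 0.596 in control libraries (exact permutation p = 0.9). These values rest on 10 to 27 cells in a library, and the highest, 4.60% in control 1, on 13 cells. In all 5 clusters the groups overlapped, and leaving out cKO 2 turned the difference negative in each.

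**Figure D1:**
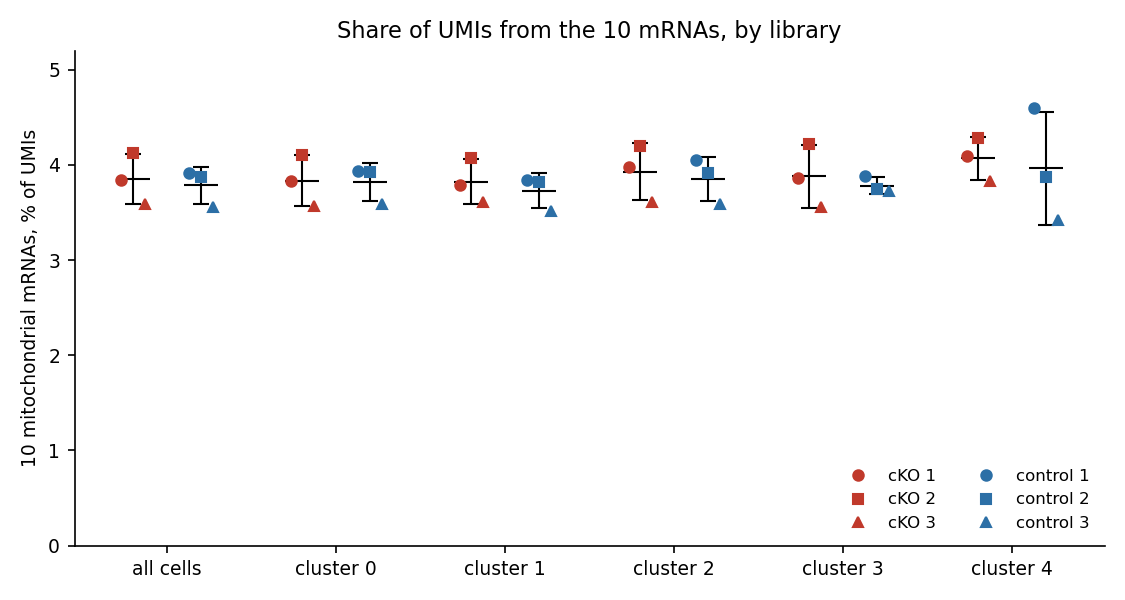
Share of UMIs from the 10 mitochondrial mRNAs (y axis, percent) in all cells and in the authors' clusters 0 to 4 (x axis). Red symbols are the cKO libraries and blue symbols the control libraries, by replicate number, with the mean and SD of 3 libraries in black; over all cells the libraries sit between 3.56% and 4.12% and the groups overlap.

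Gene by gene, none of the 10 passed the test between cKO and control. With edgeR on the summed counts, 0 of 11540 genes tested passed an adjusted p of 0.05 (0%), 405 genes (3.51%) had an unadjusted p under 0.05, and DESeq2 called 4. The lowest edgeR adjusted p of any gene was 0.415, so Rb1 was not called either, although its groups did not overlap in CPM. Not being called is therefore no evidence that a gene is unchanged. All 10 members passed the low-count filter, 0 were called, 0 had an unadjusted p under 0.05 and 0 had groups that did not overlap in CPM, against 8.62% of all genes tested. Of the 10, 6 had a positive log2 fold change, the median was 0.01 and the range was -0.03 to 0.05, beside a split of 5776 positive and 5764 negative over all genes tested. Counts of members called or with groups apart were also 0 in each cluster, where 0% of genes were called and 8.99%, 8.87%, 9.03%, 9.06% and 9.39% had groups that did not overlap in clusters 0 to 4.

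Among the complex I mRNAs, mt-Nd1 lay at 3594, 3793 and 3161 CPM in cKO libraries, against 3681, 3611 and 2931 CPM in control libraries. Control 3 was the lowest and cKO 2 the highest, and the log2 fold change was 0.03 ± 0.09 (SE; 95% interval -0.17 to 0.24, edgeR adjusted p = 0.994). The mRNA mt-Nd2, for a proton-pumping subunit, lay at 1126, 1111 and 1031 CPM in cKO libraries, against 987, 1063 and 1156 CPM in control libraries. Here the order was turned, with control 3 the highest, and the log2 fold change was 0.01 ± 0.08 (SE; interval -0.17 to 0.19). The mRNA mt-Nd4 lay at 1958, 2089 and 1797 CPM in cKO libraries, against 2013, 2062 and 1763 CPM in control libraries. The groups overlapped fully, with a log2 fold change of -0.01 ± 0.08 (SE).

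The longest and the shortest of the 10 are both complex I mRNAs. The longest, mt-Nd5, was the least abundant of the 10, at 157, 141 and 146 CPM in cKO libraries and 138, 146 and 148 CPM in control libraries. Its log2 fold change was 0.02 ± 0.07 (SE), and its highest library was 1.14 times its lowest. Its 95% Wilson intervals were 3.87% to 5.88% of the value on either side, as wide as most of its differences between libraries. The shortest of the 10, mt-Nd3, lay at 439, 209.6 and 410.4 CPM in cKO libraries, against 255, 285 and 479.6 CPM in control libraries. Its low and high libraries were split over both groups, so that the log2 fold change of 0.03 had a standard error of 0.42 and an interval of -1.09 to 1.14. Summed over complex I, the 5 members came to 7054 ± 442 CPM in cKO and 6906 ± 374 CPM in control libraries (SD, n = 3 each, exact permutation p = 0.5).

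The complex III mRNA mt-Cytb, for cytochrome b, lay at 3707, 4077 and 3588 CPM in cKO libraries, against 4046, 3834 and 3529.9 CPM in control libraries. The libraries numbered 3 were the lowest of both groups, and the log2 fold change was -0.02 ± 0.08 (SE; interval -0.19 to 0.15).

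Of the complex IV mRNAs, mt-Co1, for the catalytic subunit, lay at 5079.9, 5096 and 4745 CPM in cKO libraries, against 5226, 4987 and 4093 CPM in control libraries. Control 3 stood below the other 5 libraries, and the log2 fold change of 0.05 ± 0.09 (SE; interval -0.14 to 0.24), the highest of the 10, came to -0.03 without control 3. The mRNA mt-Co2, for the subunit that takes electrons from cytochrome c, lay at 3785, 4334 and 3488 CPM in cKO libraries, against 3741, 3823 and 4116 CPM in control libraries. In the replicate 3 libraries it went opposite ways, the lowest of all in cKO 3 and the highest control in control 3, and its log2 fold change was -0.03 ± 0.09 (SE). The mRNA mt-Co3, the most abundant of all, lay at 10631, 11699 and 10170.5 CPM in cKO libraries, against 11084, 10546 and 9993 CPM in control libraries. Its log2 fold change was 0.03 ± 0.08 (SE; interval -0.15 to 0.20), and the 3 complex IV members summed to 19676 ± 1372 CPM in cKO and 19203 ± 934 CPM in control libraries (exact permutation p = 0.6).

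The ATP synthase mRNA mt-Atp6 lay at 7971, 8673 and 7376 CPM in cKO libraries, against 8032, 8369.7 and 7389.8 CPM in control libraries. The replicate 3 libraries of both groups were again the lowest, and the log2 fold change was 0.00 ± 0.08 (SE; interval -0.17 to 0.17). For 9 of the 10 mRNAs the 95% interval lay between -0.24 and 0.24 on the log2 scale, and mt-Nd3 was the exception.

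**Figure D2:**
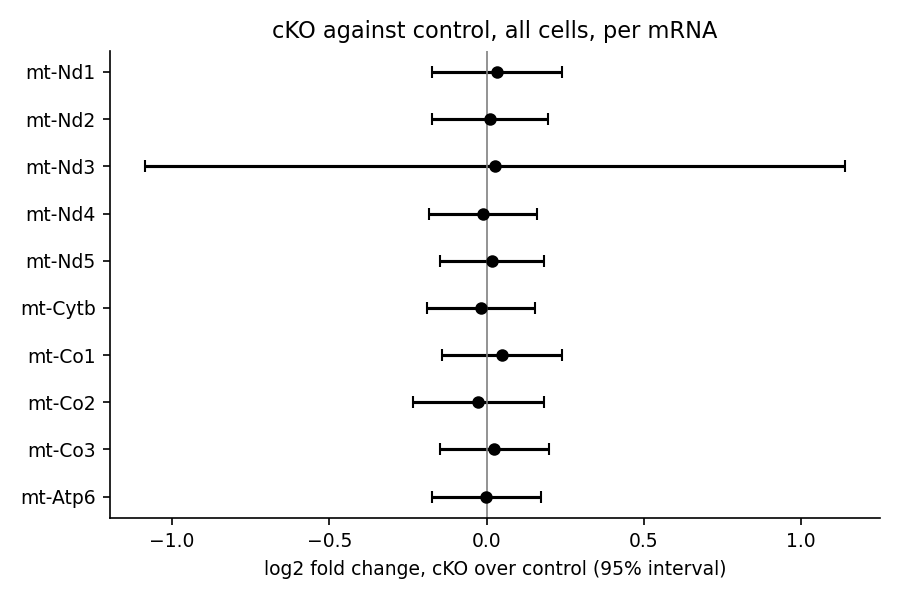
Log2 fold change of each mRNA, cKO over control, over all cells (x axis), with the 95% interval of the edgeR fit, from 3 libraries a group. All 10 intervals hold 0; mt-Nd3 has the widest, from -1.09 to 1.14.

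Levels differed far more among the 10 mRNAs than between the groups. Divided by the length of each gene, mt-Co3 had the highest level, 13818 CPM per kb in cKO and 13445 CPM per kb in control libraries. It was followed by mt-Atp6, with 11757 CPM per kb in cKO and 11646 CPM per kb in control libraries, and by mt-Co2, with 5656 and 5692 CPM per kb in the cKO and control libraries. Next came mt-Nd1 at 3674 CPM per kb in cKO and 3561 CPM per kb in control libraries, mt-Cytb at 3313 and 3324, and mt-Co1 at 3219 and 3087. Of these, mt-Cytb and mt-Co1 differed by less than the larger of their SDs, 223 CPM per kb in cKO and 387 CPM per kb in control libraries, and mt-Nd1 was apart from mt-Cytb by more than its SD of 338 CPM per kb in cKO but not by its SD of 433 CPM per kb in control libraries. The lowest were mt-Nd4 at 1414 CPM per kb in cKO and 1412 CPM per kb in control libraries, mt-Nd2 at 1049.6 and 1029.4, mt-Nd3 at 1015 and 976 with SDs of 359 and 351, and mt-Nd5 at 81.0 and 79.0. The order of mt-Nd2 and mt-Nd3 was within the spread of mt-Nd3. A 3' tag count does not grow with transcript length, so undivided CPM is the more direct scale here, and it placed mt-Co3, mt-Atp6 and mt-Co1 first. Of the UMIs of the 10, mt-Co3 alone held 28.1% ± 0.405 in cKO and 27.9% ± 0.551 in control libraries, and mt-Atp6 held 20.8% ± 0.252 in cKO and 20.95% ± 0.586 in control libraries.

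Libraries of both groups stood apart in a few mRNAs, most of all in mt-Atp8. The mRNA mt-Atp8, outside the 10 but read from the same transcript as mt-Atp6, had 72.2, 20.6 and 174 CPM in cKO libraries, against 34.6, 30.4 and 176 CPM in control libraries. Its replicate 3 libraries were the highest of each group and lay close together. As a share of mt-Atp6 UMIs, mt-Atp8 came to 0.906%, 0.237% and 2.36% in cKO libraries, against 0.431%, 0.363% and 2.38% in control libraries. Within cluster 0 the same shares were 0.983%, 0.235% and 2.35% in cKO libraries, against 0.416%, 0.340% and 2.38% in control libraries, as over all cells. The highest library was 8.54 times the lowest for mt-Atp8, a ratio larger than that of 99.9% of the 4932 genes that averaged 20 CPM or more.

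Libraries also differed in mt-Nd3, mt-Nd4l and mt-Nd6. For mt-Nd3 the highest library was 2.29 times the lowest, which was above 97.6% of those genes, and its high libraries were cKO 1, cKO 3 and control 3. For mt-Nd4l, which also lies outside the 10, the share of mt-Nd4 UMIs was 4.05%, 2.84% and 5.43% in cKO libraries, against 2.56%, 3.38% and 5.07% in control libraries. For mt-Nd6, a complex I mRNA of the other strand and also outside the 10, levels were 5.51, 5.001 and 7.73 CPM in cKO libraries, against 3.93, 5.66 and 6.87 CPM in control libraries. The highest library was 1.97 times the lowest for mt-Nd6 and 1.90 times for mt-Nd4l. The genes mt-Atp8, mt-Nd4l, mt-Nd3 and mt-Nd6, of 204, 297, 348 and 519 bases, are the 4 shortest of the 13. For the other 9 members the highest library was 1.14 to 1.29 times the lowest. Counting error was small against the differences in mt-Nd3, whose 95% Wilson interval was 202 to 218 CPM in cKO 2 and 469 to 490.1 CPM in control 3. It was larger for mt-Nd6, at 17.3% to 30.2% of the value on either side. The mt-Nd6 interval was 2.92 to 5.29 CPM in control 1, its lowest library, and 6.51 to 9.18 CPM in cKO 3, its highest. Those of the libraries between overlapped one another. Such intervals cover counting error only.

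**Figure D3:**
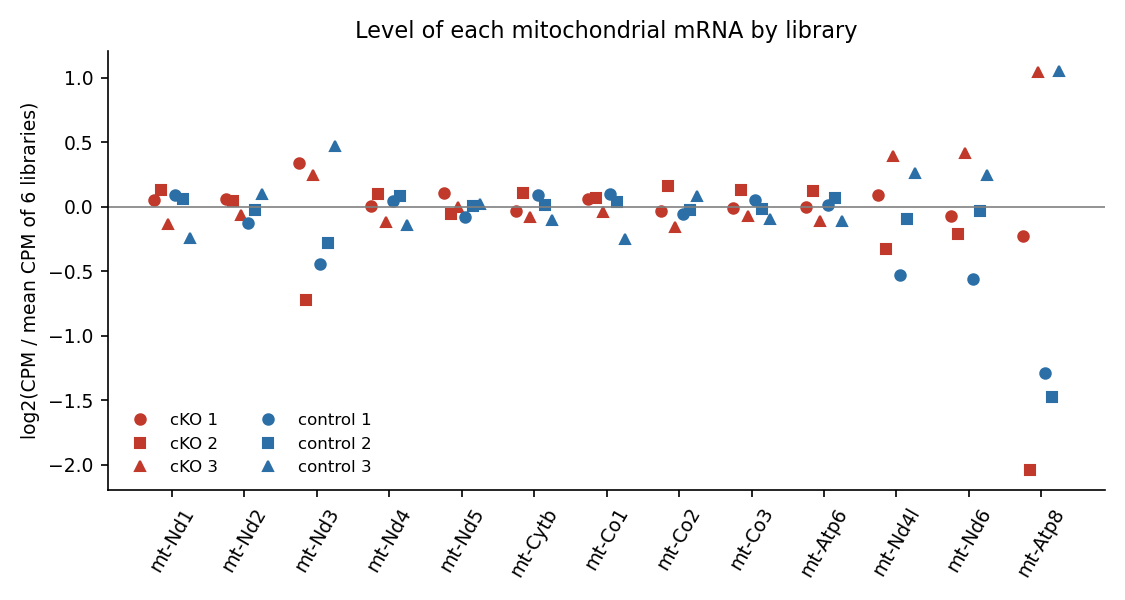
Level of each of the 13 mitochondrial mRNAs in each library, as log2 of its CPM over its mean CPM in the 6 libraries (y axis). Red symbols are cKO and blue symbols control libraries, and the last 3 mRNAs on the x axis are outside the 10. The replicate 3 libraries of both groups are highest for mt-Atp8, at 174 CPM in cKO 3 and 176 CPM in control 3.

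Differences between clusters are described without a test, since the clusters were made from the expression of the same cells. The share of the 10 mRNAs was lower in cluster 1 than in cluster 0 in 5 of 6 libraries, with a mean step of -0.0506 points, and higher in cluster 2 than in cluster 0 in 5 of 6, with a mean step of 0.0636 points. The mRNA mt-Co1 followed both steps in every library. In cluster 0 it lay at 5094, 5127 and 4754 CPM in cKO libraries and at 5298, 5070.3 and 4132 CPM in control libraries. In cluster 1 it lay at 4894, 4897 and 4579.6 CPM in cKO libraries, against 4994, 4812 and 3953 CPM in control libraries. It was thus lower than in cluster 0 in 6 of 6 libraries, by -0.09 to -0.05 on the log2 scale.

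In cluster 2, mt-Co1 lay at 5409, 5353 and 4998 CPM in cKO libraries, against 5633, 5446 and 4319 CPM in control libraries, which was above cluster 0 in 6 of 6, by 0.06 to 0.10. The mRNAs mt-Co2 and mt-Nd3 were also lower in cluster 1 than in cluster 0 in 6 of 6 libraries, by -0.06 and -0.07 on average. The smallest step of mt-Nd3 was -0.00795, in cKO 2. In the other direction, mt-Nd4 was higher in cluster 1 in 6 of 6, by 0.04. No member other than mt-Co1 stood on one side of cluster 0 in all 6 libraries in cluster 2. The share of all genes on one side of cluster 0 in all 6 libraries was not counted.

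The step from cluster 0 to cluster 1 leaned differently in the groups for some members. For the summed 10 it was -0.00952 ± 0.0487 points in cKO and -0.0918 ± 0.0182 points in control libraries (SD, n = 3 each), with no overlap (exact permutation p = 0.1, the smallest that 3 against 3 can give). The difference of 0.0822 points was 0.0703 with means over cells (exact permutation p = 0.2) and 0.0543 without cKO 3. On the log2 scale, 3 of 10 members had steps that did not overlap between groups, beside 9.77% of 4932 genes. These were mt-Cytb, with 0.06 ± 0.03 in cKO and -0.01 ± 0.01 in control libraries, mt-Atp6, with 0.03 ± 0.02 in cKO and -0.02 ± 0.01 in control libraries, and mt-Co2, with -0.04 ± 0.02 in cKO and -0.08 ± 0.03 in control libraries. Of the 3, only mt-Atp6 had steps of opposite sign in all libraries of the groups, beside 1.24% of genes. The 3 members share one denominator and are part of the summed 10, so they are not independent of it or of one another. Counting error of the steps was not computed. In the steps from cluster 0 to clusters 2, 3 and 4, 0 of 10 members did not overlap, beside 9.92%, 10.3% and 9.40% of genes.

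**Figure D4:**
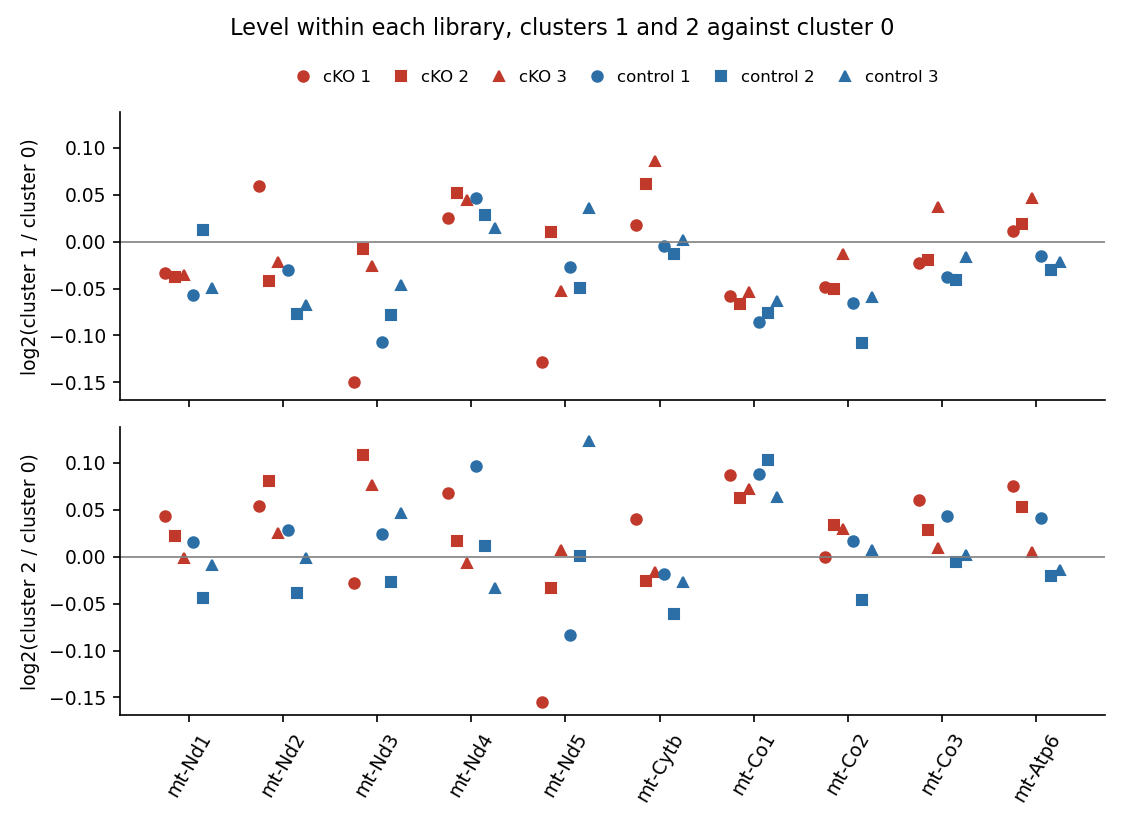
Level of each of the 10 mRNAs within each library, as log2 of cluster 1 over cluster 0 (upper panel) and of cluster 2 over cluster 0 (lower panel). Red symbols are cKO and blue symbols control libraries; mt-Co1 lies below 0 in 6 of 6 libraries in the upper panel and above 0 in 6 of 6 in the lower one.

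Between single cells the mitochondrial share varied more than the sampling of UMIs alone would give. Its SD over cells was 0.727, 0.747 and 0.728 percentage points in cKO libraries and 0.730, 0.765 and 0.712 points in control libraries, against 0.154 to 0.183 points for binomial sampling of each cell's UMIs. The median cell had 3.87%, 4.12% and 3.56% in cKO libraries, against 3.92%, 3.89% and 3.57% in control libraries, which follows the library shares. The highest cell of each library lay between 6.20% and 6.47%, with 53 cells above 6% and 26 cells below 2% of 5154. Whether cells with a higher mitochondrial share had been removed before deposit is not given in the sources used here.

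Cells with fewer UMIs had a larger mitochondrial share in all 6 libraries. With the cells of a library cut into 3 equal groups by depth, the share in the shallowest group was 4.16%, 4.50% and 3.97% in cKO libraries, against 4.29%, 4.25% and 3.93% in control libraries. In the deepest group it was 3.61%, 3.88% and 3.38% in cKO libraries, against 3.66%, 3.59% and 3.33% in control libraries. Over the cells of a library, Pearson's r between log2 UMIs and the share ran from -0.372 to -0.0593, and the 2 measures are not independent, because UMIs are the denominator of the share. The 8 more abundant members moved together between cells, with a median pairwise r of 0.485 to 0.539 in a library over 430 to 1354 cells that share one library and one denominator. The share of nuclear respiratory chain and ATP synthase genes went with it only weakly, with r from 0.126 to 0.268.

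**Figure D5:**
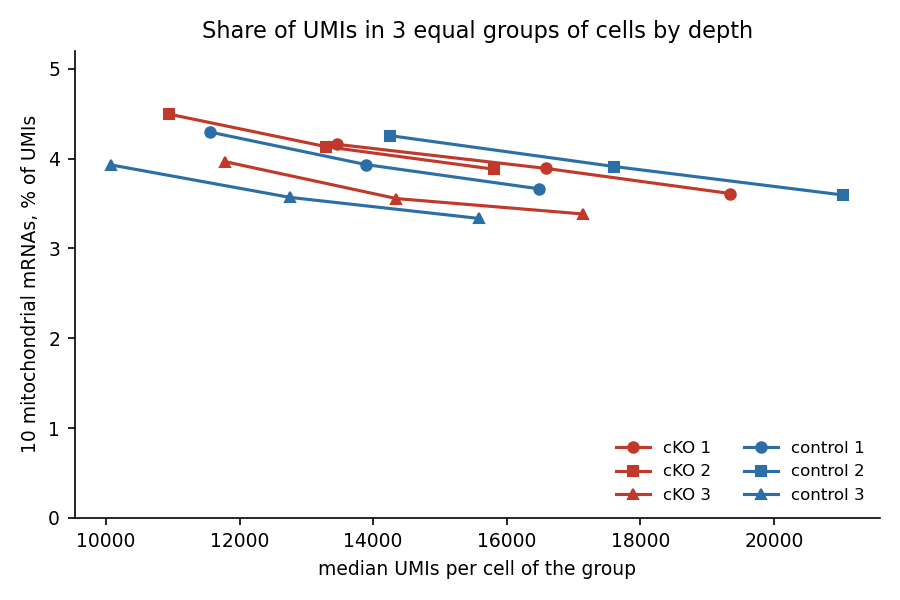
Share of UMIs from the 10 mRNAs (y axis, percent) in 3 equal groups of each library's cells by depth, at the median UMIs per cell of each group (x axis). Red lines are cKO and blue lines control libraries; the share falls with depth in all 6, as in cKO 1 with 4.16%, 3.89% and 3.61%.

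The nuclear subunits that join these products were set beside them. Of 73 nuclear subunits of complexes I, III, IV and ATP synthase, 0 were called by edgeR and 0 had an unadjusted p under 0.05. By sign, 68 were negative and 5 positive, with a median log2 fold change of -0.07, beside 5764 negative and 5776 positive genes of all tested. The latter were not matched to the subunits for level. The 73 subunits were read from the same 6 libraries and are not independent, and their signs were not tested. They summed to 42130 ± 1101 CPM in cKO and 43742 ± 1189 CPM in control libraries (exact permutation p = 0.3). The median was -0.03 without cKO 1 and also -0.03 without control 3, and with either left out 55 and 58 were negative. The complex I list, which held Ndufa4, gave 4 positive and 33 negative, the complex III list 0 and 9, the complex IV list 0 and 11, and the ATP synthase list 1 and 15. The 16 nuclear ATP synthase subunits summed to 13150 ± 270.2 CPM in cKO and 13586 ± 133 CPM in control libraries (exact permutation p = 0.1, the smallest possible). This was the lowest p of all the lists summed, and 8.62% of all genes tested also had groups that did not overlap. For the lists of complexes I, III and IV the exact permutation p was 0.2, 0.2 and 0.4.

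Of single nuclear subunits, the most abundant and, at 20 CPM or more, the one with the largest fold change of each complex's list are given. Cox7c, a small complex IV subunit, had 2812 ± 372 CPM in cKO and 2929 ± 385 CPM in control libraries, a log2 fold change of -0.07 ± 0.14 (SE). Atp5b, the catalytic beta subunit of ATP synthase, had 2479 ± 43.0 CPM in cKO and 2482 ± 130.4 CPM in control libraries, a log2 fold change of -0.02 ± 0.06. Ndufa4, a cytochrome c oxidase subunit counted here in the complex I list, had 944 ± 52.5 CPM in cKO and 967 ± 55.7 CPM in control libraries. The complex III subunit Uqcrb had 809 ± 52.5 CPM in cKO and 846 ± 105 CPM in control libraries. The groups of these 4 genes overlapped. The largest fold changes by complex were negative. Ndufa1 of complex I had 109 ± 21.3 CPM in cKO and 133 ± 14.3 CPM in control libraries, a log2 fold change of -0.30 ± 0.16 (SE). Uqcr11 of complex III had 699.98 ± 89.7 CPM in cKO and 763 ± 39.6 CPM in control libraries, a log2 fold change of -0.14 ± 0.11. Cox7b of complex IV had 432 ± 19.1 CPM in cKO and 471 ± 42.7 CPM in control libraries, a log2 fold change of -0.14 ± 0.10. Atp5g3 of ATP synthase had 311 ± 15.7 CPM in cKO and 349.7 ± 62.1 CPM in control libraries, a log2 fold change of -0.19 ± 0.14. These 4 had an edgeR adjusted p of 0.994. Sdhd, a membrane anchor of complex II named for the largest change of its list, had 89.7 ± 3.13 CPM in cKO and 106 ± 7.29 CPM in control libraries. Its groups did not overlap, as for 8.62% of all genes tested. Its unadjusted edgeR p was 0.00611, beside 3.51% of all genes under 0.05, with an edgeR adjusted p of 0.994. The complex II list had 2 of 4 subunits positive, and that complex has no mitochondrially encoded subunit.

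The factors that make and translate the 10 mRNAs were likewise without a call. Of 76 mitochondrial ribosomal proteins tested of 77, 0 were called, 2 had an unadjusted p under 0.05, and 20 were positive and 56 negative, with a median of -0.04. Mrps28 had the largest fold change among those of at least 20 CPM, with 119 ± 6.34 CPM in cKO and 148 ± 17.6 CPM in control libraries, a log2 fold change of -0.34 ± 0.11 (SE) with an edgeR adjusted p of 0.994. Its groups did not overlap, as for 8.62% of all genes tested. Of 30 genes of mitochondrial transcription and RNA processing tested, 8 were positive and 22 negative. Among them, Slirp, which binds and stabilises mitochondrial mRNAs, had 264 ± 27.1 CPM in cKO and 278 ± 34.8 CPM in control libraries, and Grsf1, a protein of mitochondrial RNA granules, had 49.4 ± 1.30 CPM in cKO and 57.8 ± 16.03 CPM in control libraries. The lists of mitochondrial DNA maintenance, with 9 of 14 positive, and of translation factors, with 7 of 13 positive, had medians of 0.04 and 0.02. The biogenesis regulators had 4 of 8 positive, and the fission, fusion and mitophagy list had 8 of 13 positive.

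The genes whose levels went most with the summed 10 mRNAs are given as a description. Over 30 profiles, the 5 clusters of 6 libraries, the highest Pearson correlations of log2(CPM + 1) among 4920 nuclear genes were those of Ypel3 (r = 0.827), Aldoa (0.805), Sec61a2 (0.778), H3f3b (0.765) and Stub1 (0.752). Over the 6 whole libraries they were those of Rpp40 (r = 0.992), Sra1 (0.986), Adrm1 (0.986), Emc8 (0.985) and Fam53a (0.980). Profiles of one library share its depth and handling, and 6 points compared with 4920 genes leave room for high correlations by chance. Aldoa, a glycolytic aldolase, had 698, 606 and 465 CPM in cKO libraries, against 622, 599 and 472 CPM in control libraries, and its libraries numbered 3 were the lowest of both groups, as for the 10 mRNAs.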

How the data were processed

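Single-cell RNA was measured in 6 libraries, 3 of Rb1 cKO and 3 of control germ cells. The deposited table holds UMI counts, not normalized, for 27998 genes and 5160 barcodes, and a second deposited file holds the authors' cluster number of each barcode (a label, not a measurement). Per the submitters' processing notes, Cell Ranger, Seurat 3.0 and the build mm10 were used, and no parameters or annotation release are given in the sources used here. Columns were tied to samples by their prefix, and 0 columns were unused.

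Barcodes with at least 500 genes were kept. UMIs were summed per library, and per library and cluster where every library had at least 10 cells; clusters 3 and 4 met this and were run like the others. No doublet caller was run, and the labels do not say how doublets were treated. CPM is the summed count over the library's summed UMIs times 1000000, without further scaling. Summed counts were tested with edgeR 4.0.16 in R 4.3.3 (quasi-likelihood, robust, filterByExpr, TMM factors, no covariate, two-sided, Benjamini-Hochberg over all genes tested, threshold 0.05), and DESeq2 1.42.0 was an alternative. Shares, and the difference of the share between clusters within a library, were compared with the exact permutation test, two-sided, over all 20 labelings of the libraries. The edgeR step was tested on simulated data.

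Depth per library is given with the results. The half-width of the 95% Wilson interval, which covers counting error only, ran from 0.469% of a member's value (mt-Co3, control 3) to 5.88% (mt-Nd5, control 2). The members, the lists and the named genes (the 10, 3 neighbours, and from each list the 2 most abundant genes and the 1 with the largest change of at least 20 CPM) were chosen with earlier results of these data known; not all of the last are printed. Alternatives were other size factors, no filter, scaling over nuclear genes, the replicate number as a block, other cell filters, cell means and medians, all 13 mRNAs, equal weight of clusters, and leaving out each library. Leaving out both replicate 3 libraries was added after the data were seen. Sequences and coordinates are from GENCODE transcripts of GRCm38 (mm10), and a match to another transcript means 50 identical bases read in the direction of both transcripts.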

Additional observations from a re-analysis of the deposited data

Results flagged for a closer look

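In the step from cluster 0 to cluster 1, mt-Atp6, for a subunit of the proton channel of ATP synthase, was higher in cluster 1 in each cKO library and lower in cluster 1 in each control library. The log2 ratios of cluster 1 over cluster 0 were 0.01, 0.02 and 0.05 in cKO libraries, against -0.02, -0.03 and -0.02 in control libraries, a difference of 0.0483 between the group means. The difference was not tested. Counting error of these ratios was not computed, so the sign of the smaller steps is uncertain. The step in cKO 1 was 0.0117, from 24522 UMIs of mt-Atp6 in cluster 0 and 22602 in cluster 1. Over all cells of cKO 1, the Wilson half-width of mt-Atp6 was 0.783% of its value. Steps of opposite sign in the groups were seen for 1 of the 10 mRNAs, beside 1.24% of 4932 genes. Almost all of its 50-base windows, 99.5%, also match a nuclear copy, whose part in the value was not tested.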

How the results depend on the processing

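Members called stayed at 0 over all cells and in every cluster under every alternative run. Over all cells, the count of genes called was 4 by DESeq2, 6 without the low-count filter and 2 without both replicate 3 libraries; leaving out single libraries gave 0 to 4. Without the filter it was 15, 8, 3 and 17 in clusters 0 to 3; without both replicate 3 libraries, 3, 4, 3, 3 and 1 in clusters 0 to 4; leaving out single libraries, 0 to 2 in clusters 0 to 2, 0 to 3 in cluster 3 and 0 to 1 in cluster 4. The replicate block gave 0 genes called over all cells and 1 in cluster 3, and moved no other count. Deviations of same-numbered libraries from their group means correlated with r of -0.13, 0.23 and 0.20, against -0.30 to 0.16 for different numbers. These values do not settle whether the numbers pair the libraries. The share difference ran, over single libraries left out, from -0.0663 to 0.199 points over all cells, -0.120 to 0.149 in cluster 0, -0.0268 to 0.203 in cluster 1, -0.0556 to 0.242 in cluster 2, -0.0734 to 0.257 in cluster 3 and -0.166 to 0.424 in cluster 4. The difference between groups in the step from cluster 0 to cluster 1, 0.0822 points, ran from 0.0543 to 0.0994 over single libraries left out. With the replicate block its exact permutation p was 0.25, the smallest that swapping within replicate numbers can give. The share difference was -0.00644 as a median over cells in cluster 0 and -0.0477 without both replicate 3 libraries in cluster 4. Leave-one-out ranges of log2 fold changes that changed sign were -0.0456 to 0.0886 (mt-Nd1), -0.0476 to 0.0962 (mt-Nd2), -0.149 to 0.395 (mt-Nd3), -0.0690 to 0.0263 (mt-Nd4), -0.0165 to 0.0627 (mt-Nd5), -0.0776 to 0.0250 (mt-Cytb), -0.0309 to 0.116 (mt-Co1), -0.119 to 0.0405 (mt-Co2), -0.0370 to 0.0594 (mt-Co3), -0.0650 to 0.0394 (mt-Atp6), -0.0672 to 0.399 (mt-Nd4l), -0.118 to 0.400 (mt-Nd6) and -0.903 to 1.48 (mt-Atp8). For nuclear genes they were -0.0365 to 0.00750 (Atp5b), -0.109 to 0.00198 (Cox4i1), -0.204 to 0.0585 (Cox7c), -0.408 to 0.0326 (Grsf1), -0.0812 to 0.0525 (Mrpl42), -0.0961 to 0.0223 (Ndufa4), -0.0124 to 0.134 (Nrf1), -0.0732 to 0.0204 (Pprc1), -0.00889 to 0.0852 (Rexo2), -0.0578 to 0.0320 (Sdhb), -0.175 to 0.0397 (Slirp), -0.174 to 0.0346 (Uqcrb) and -0.324 to 0.307 (Yy1). Scaling over nuclear genes gave mt-Atp6 a log2 fold change of 0.000212. Without both replicate 3 libraries the log2 fold change was -0.0160 for mt-Co1, 0.0934 for mt-Co2, 0.0118 for mt-Atp6, 0.0576 for Mrpl42, 0.00428 for Ndufa4, 0.00248 for Rnaseh1 and 0.481 for Yy1. The cause of these shifts was not tested beyond the smaller number of libraries. Clusters 3 and 4 had too few cells of at least 10000 UMIs for that alternative. For mt-Nd5, counting error was as wide as most differences between libraries.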
